A study of Mus musculus with 9 samples.

Results

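The proteasome genes of the mouse were followed through cultured lung cells with and without Nrf2. Members were the genes whose symbol names a 20S core subunit (Psma, Psmb), a 19S ATPase (Psmc), another 19S protein (Psmd), an activator (Psme), a core assembly chaperone (Psmg) or the maturation factor Pomp. The rule took probe sets with a single symbol and kept, for each gene, the probe set with the highest mean log2 signal over the arrays. It found 49 genes among the 18193 genes measured, through 100 probe sets, and 26 of the genes had more than 1 probe set. Of the 5 members known to be induced by interferon, 4 could be measured this way (Psmb8, Psmb9, Psmb10 and Psme1). The probe set of Psme2 carries a second symbol as well and is described apart. The other 43 proteasome genes are called constitutive members here, and Psmc3ip and Psme3ip1, which match the rule by name but are no subunits, were counted apart. A signal filter, set at the median of all probe sets, was passed by 4 of 4 interferon-induced and 41 of 43 constitutive members.

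The 9 arrays formed 3 groups of 3. Wild-type cells came from Nrf2+/+ mice, knockout cells from Nrf2-/- mice, and the arm called knockout with GSH from Nrf2-/- mice with a supplement of GSH, commonly short for glutathione, the cell's main thiol antioxidant. The labels give the strain as ICR10, the sex as female and the age as 2 months in all 3 groups, and name the cells type II cells, the alveolar epithelial cells that make surfactant. Per the labels' protocols, macrophages were removed on IgG plates and fibroblasts by adherence to dishes, and the rest was cultured for 5 days on a fibronectin and collagen coat together with keratinocyte growth factor. No source used here gives the dose or the time of GSH, and the labels' treatment field names no treatment. A number in the titles splits every group into 2 arrays (set 2) and 1 array (set 3), and no source says what it stands for. Whether replicate arrays stand for separate animals or cultures is not stated, so p-values measure the spread between these arrays only, which may be technical.

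The proteasome is the barrel-shaped protease that degrades ubiquitin-tagged proteins in every cell. Its 20S core has outer alpha rings and inner beta rings, and the beta subunits Psmb5, Psmb6 and Psmb7 carry the catalytic sites. The 19S cap binds ubiquitin chains, unfolds the substrate with a ring of ATPases and feeds it into the core. Interferon induces Psmb8, Psmb9 and Psmb10, which replace Psmb5, Psmb6 and Psmb7 in newly built cores to form the immunoproteasome, and Psme1 and Psme2, which form the PA28 activator. Such proteasomes are abundant in macrophages and other immune cells and trim peptides for MHC class I. The transcription factors Nrf1 (gene Nfe2l1) and Nrf2 (gene Nfe2l2) are known to act on genes of the ordinary subunits through the antioxidant response element.

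Signals are in arbitrary units, given as mean ± SD (n = 3 arrays per group). Differences are log2 differences ± SE from limma, with p adjusted by the Benjamini-Hochberg method over all 22519 probe sets past the filter, and a member was called when that p lay under 0.05. Signals of different probe sets cannot be ranked against each other. Nfe2l2 gave 3878.6 to 4172.8 in wild type and 28.7 to 77.4 over all 6 knockout arrays. Xist, the RNA of the inactive X chromosome, gave 132.2 to 187.8 in wild type and 2443.8 to 4776.6 on the knockout arrays, and the Y-linked gene Eif2s3y gave 701.3 to 936.3 and 1.5 to 24.4, although every animal is labelled female. Genotype and these sex-linked differences cannot be told apart in either comparison with wild type. Of 10 type II markers measured, 7 passed the filter, and the defining gene Sftpc, at group means of 37.3 to 107.8, was not among them. Replicates in the same set correlated at 0.979 to 0.990 and replicates in different sets at 0.95 to 0.968.

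Knockout cells had more transcript of all 4 interferon-induced members than wild-type cells, while no constitutive member was called higher by the probe set used here. Psmb8 and Psmb9 more than doubled, Psmb10 rose 1.90-fold and Psme1 1.42-fold. Of 41 constitutive members, limma called 7 lower and 0 higher (3 higher at an unadjusted p under 0.05). The median log2 difference was 1.07 over the interferon-induced members, -0.01 over the constitutive members and 0.01 over all genes. Among all probe sets tested, 29.1% were called (14.6% in each direction), against 17.1% of the constitutive members. All 7 constitutive calls were falls, a share slightly above the 14.6% of all probe sets and 15.7% of all genes called lower. The falls are thus not particular to the proteasome, while the 0 rises lay below the 14.6% of all probe sets called higher.

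Psmb8, the subunit also called LMP7 that replaces Psmb5, had signals of 1050.4, 1047.9 and 1129.6 in wild type and 2270.6, 2786.6 and 2906.5 in knockout. The lowest knockout array was above the highest wild-type array by more than the whole range of either group. The mean went from 1076 ± 46.5 to 2655 ± 338, a log2 difference of 1.30 ± 0.09 (2.45-fold, limma adjusted p = 1.1e-06), with 1.26 in set 2 and 1.36 in set 3. A second, dimmer Psmb8 probe set was also called, with a log2 difference of 1.46.

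Psmb9, also called LMP2, replaces Psmb6, and its signals were 346.0, 341.3 and 322.0 in wild type. They were 804.0, 772.0 and 767.0 in knockout. Both groups were tight and far apart. The difference was 1.22 ± 0.09 on the log2 scale (2.32-fold, limma adjusted p = 1.4e-06), and it was 1.197 in set 2 and 1.252 in set 3.

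Psmb10, also called MECL-1, replaces Psmb7, and it read 1046.3, 1168.0 and 1034.4 in wild type. The knockout arrays read 2000.7, 2039.2 and 2137.5. The 3 knockout arrays lay within a narrow band well above wild type. The log2 difference was 0.93 ± 0.11 (limma adjusted p = 7.5e-05), and it was 0.87 in set 2 and 1.05 in set 3.

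Psme1, the alpha subunit of the PA28 activator, read 3394.7, 3487.8 and 2791.3 in wild type and 5051.1, 4250.8 and 4383.8 in knockout. The groups did not overlap, and the wild-type array of set 3 was the lowest of all. The log2 difference was 0.50 ± 0.11 (limma adjusted p = 0.0049), with 0.43 in set 2 and 0.65 in set 3. This was the one interferon-induced call that needed the set in the model, since without it the adjusted p was 0.077.

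One probe set is annotated to both Psme2 and Psme2b, the beta subunit gene of PA28 and its copy, and cannot be assigned to either gene. It read 2933.4, 3074.0 and 3153.5 in wild type and 4305.6, 4615.9 and 4771.5 in knockout. With GSH it read 5328.8, 5576.6 and 5458.2, so the 3 groups were ordered without overlap. The log2 differences were 0.58 ± 0.06 between knockout and wild type (limma adjusted p = 2.7e-05) and 0.26 ± 0.06 between the knockout groups (limma adjusted p = 0.0053).

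**Figure D1:**
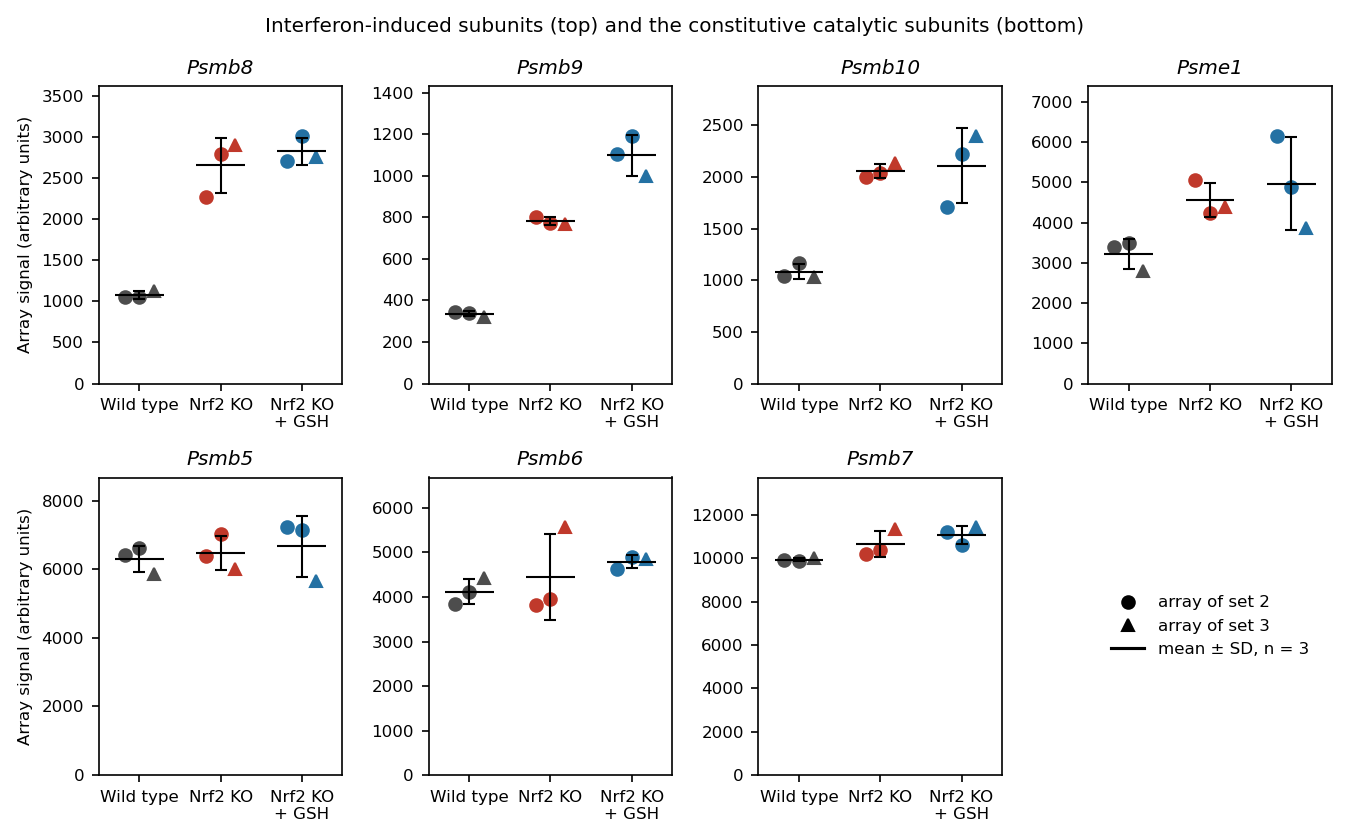
Array signal (arbitrary units, linear axis from 0) of the 4 interferon-induced members in the upper row and the 3 core subunits that Psmb8, Psmb9 and Psmb10 replace in the lower row. Each point is 1 array (circles set 2, triangles set 3), lines are group means and bars the SD of 3 arrays; the knockout groups stand above wild type in the upper row, while the fitted differences in the lower row reach at most 1.16-fold.

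Promoter windows are shown for 3 of the interferon-induced members, those whose window held a match to a motif searched. The window of Psmb10, whose transcript also rose in knockout, held no match and is not shown. The windows come from RefSeq on GRCm38.p6 and run from 250 bases before to 50 bases after the start of the gene, written 5′ to 3′ on the strand of the gene. Capitals mark letters that match one of 4 motifs, each searched on both strands: the interferon-stimulated response element (ISRE, a pair of GAAA boxes separated by NN, bound by interferon-activated factors), GAS (TTCNNNGAA, the STAT element), the core of the antioxidant response element (TGANNNNGC) and the CCAAT box (CCAAT). Psmb8 lies at chr17:34197945-34198244 on the plus strand, with a GAS match at -97 and an antioxidant core match at 24, counted from the start. Psmb9 lies at chr17:34187281-34187580 on the minus strand, with an antioxidant core match at -60 and a CCAAT match at -8. Psme1 lies at chr14:55578244-55578543 on the plus strand, with an ISRE match at 10.
Psmb8: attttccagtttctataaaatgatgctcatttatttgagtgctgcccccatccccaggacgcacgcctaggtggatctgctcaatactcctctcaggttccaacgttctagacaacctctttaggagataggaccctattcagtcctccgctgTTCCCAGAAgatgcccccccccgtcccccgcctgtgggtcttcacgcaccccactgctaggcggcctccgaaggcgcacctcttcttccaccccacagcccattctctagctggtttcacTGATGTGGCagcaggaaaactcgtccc
Psmb9: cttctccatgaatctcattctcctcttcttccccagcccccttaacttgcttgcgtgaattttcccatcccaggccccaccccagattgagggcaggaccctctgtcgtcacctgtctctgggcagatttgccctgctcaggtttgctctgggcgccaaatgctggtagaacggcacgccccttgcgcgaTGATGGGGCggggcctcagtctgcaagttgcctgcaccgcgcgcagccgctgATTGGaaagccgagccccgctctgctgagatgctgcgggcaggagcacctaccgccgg
Psme1: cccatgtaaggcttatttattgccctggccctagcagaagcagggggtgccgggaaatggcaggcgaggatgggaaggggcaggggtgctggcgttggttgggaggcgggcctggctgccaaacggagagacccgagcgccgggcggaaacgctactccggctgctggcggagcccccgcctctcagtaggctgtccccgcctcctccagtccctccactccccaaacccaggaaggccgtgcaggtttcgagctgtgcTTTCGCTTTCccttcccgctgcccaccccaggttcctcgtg

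These letters are common in promoters, and a match is a description of the window only. Of all 32851 windows of 300 bases, 3.44% held the ISRE letters, 8.3% the GAS letters, 41.3% the antioxidant core and 37.4% CCAAT. The window of Psmb10 held none of the 4. Among the 35 constitutive members with a window, 20 held the antioxidant core and 13 CCAAT. Counted by window, as for the shares above, these were 21 and 13 of their 37 windows. The ISRE letters also stood in the windows of the constitutive members Psmb3, Psmd4, Psmd9 and Psmg4, none of which was called between knockout and wild type by the probe set used here. A second Psmd4 probe set fell by 0.21. The Psmb9 window shares 275 of its 300 bases with that of Tap1, a peptide transporter gene read from the opposite strand.

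The ordinary catalytic subunits did not follow their replacements. Psmb5, which carries the chymotrypsin-like site, read 6419.4, 6613.7 and 5859.0 in wild type and 6396.6, 7015.6 and 6015.8 in knockout. The ranges overlapped, and the difference of 0.04 ± 0.07 had a 95% interval of -0.10 to 0.18 (limma adjusted p = 0.70).

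Psmb6, which carries the caspase-like site, read 3843.6, 4105.1 and 4417.8 in wild type and 3829.5, 3944.9 and 5570.8 in knockout. The array of set 3 was the high one in both groups. The difference was 0.09 ± 0.09, with an interval of -0.11 to 0.30 (limma adjusted p = 0.51).

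Psmb7, which carries the trypsin-like site, read 9907.5, 9884.5 and 10039.0 in wild type and 10224.5, 10388.1 and 11366.0 in knockout. The groups did not overlap, yet the difference of 0.10 ± 0.06 was not called (limma adjusted p = 0.22). In all, 10 of 41 constitutive members had groups that did not overlap, against 30.2% of all probe sets.

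By the probe sets used here, the genes called lower in knockout were those of 6 cap proteins and 1 activator. Among the 6 ATPases 2 were called lower, among the 11 other cap subunits 3, and among the 3 cap assembly chaperones 1, beside 15.7% of all genes. Psme4, the PA200 activator, fell by 0.23 (limma adjusted p = 0.015), though its groups overlapped. Further Psme4 probe sets gave -0.21 without a call and a called fall of 0.33. None of the 7 alpha and 7 beta ring genes of the core past the filter was called by limma, and at an unadjusted p under 0.05 there was 1 higher in each ring and 0 lower. The median absolute log2 difference over the constitutive members was 0.10, against 0.22 over all genes. The cap subunits Psmd7 and Psmd8 and the ATPase Psmc4 fell by 0.29, 0.23 and 0.21, and of these Psmd8 had groups that overlapped.

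Psmc1, an ATPase of the cap also called Rpt2, read 2481.2, 2734.9 and 2650.5 in wild type and 1896.1, 1976.5 and 2197.5 in knockout. The groups did not overlap, and the fall of 0.38 ± 0.08 had a limma adjusted p = 0.0034. Psmd6, also called Rpn7, is a scaffold subunit of the lid of the cap, and it read 4922.5, 4842.3 and 5179.9 in wild type and 3971.7, 3562.2 and 4499.7 in knockout. It fell by 0.32 ± 0.07 (limma adjusted p = 0.0063), but its second probe set gave -0.02 without a call. Without the set in the model the adjusted p of Psmd6 was 0.10.

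Psmd5, also called S5b, helps assemble the base of the cap and read 2035.4, 2159.6 and 2063.5 in wild type and 1691.1, 1846.1 and 1684.0 in knockout. The fall of 0.26 ± 0.08 passed the test (limma adjusted p = 0.032), and 5 of 16 alternatives kept the call. The count of constitutive falls was 1 without the set in the model, where 12.3% of all probe sets were called, and 3 in set 2 alone. It was 2 without wild type replicate 4 and 4 without wild type replicate 3 or 5.

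**Figure D2:**
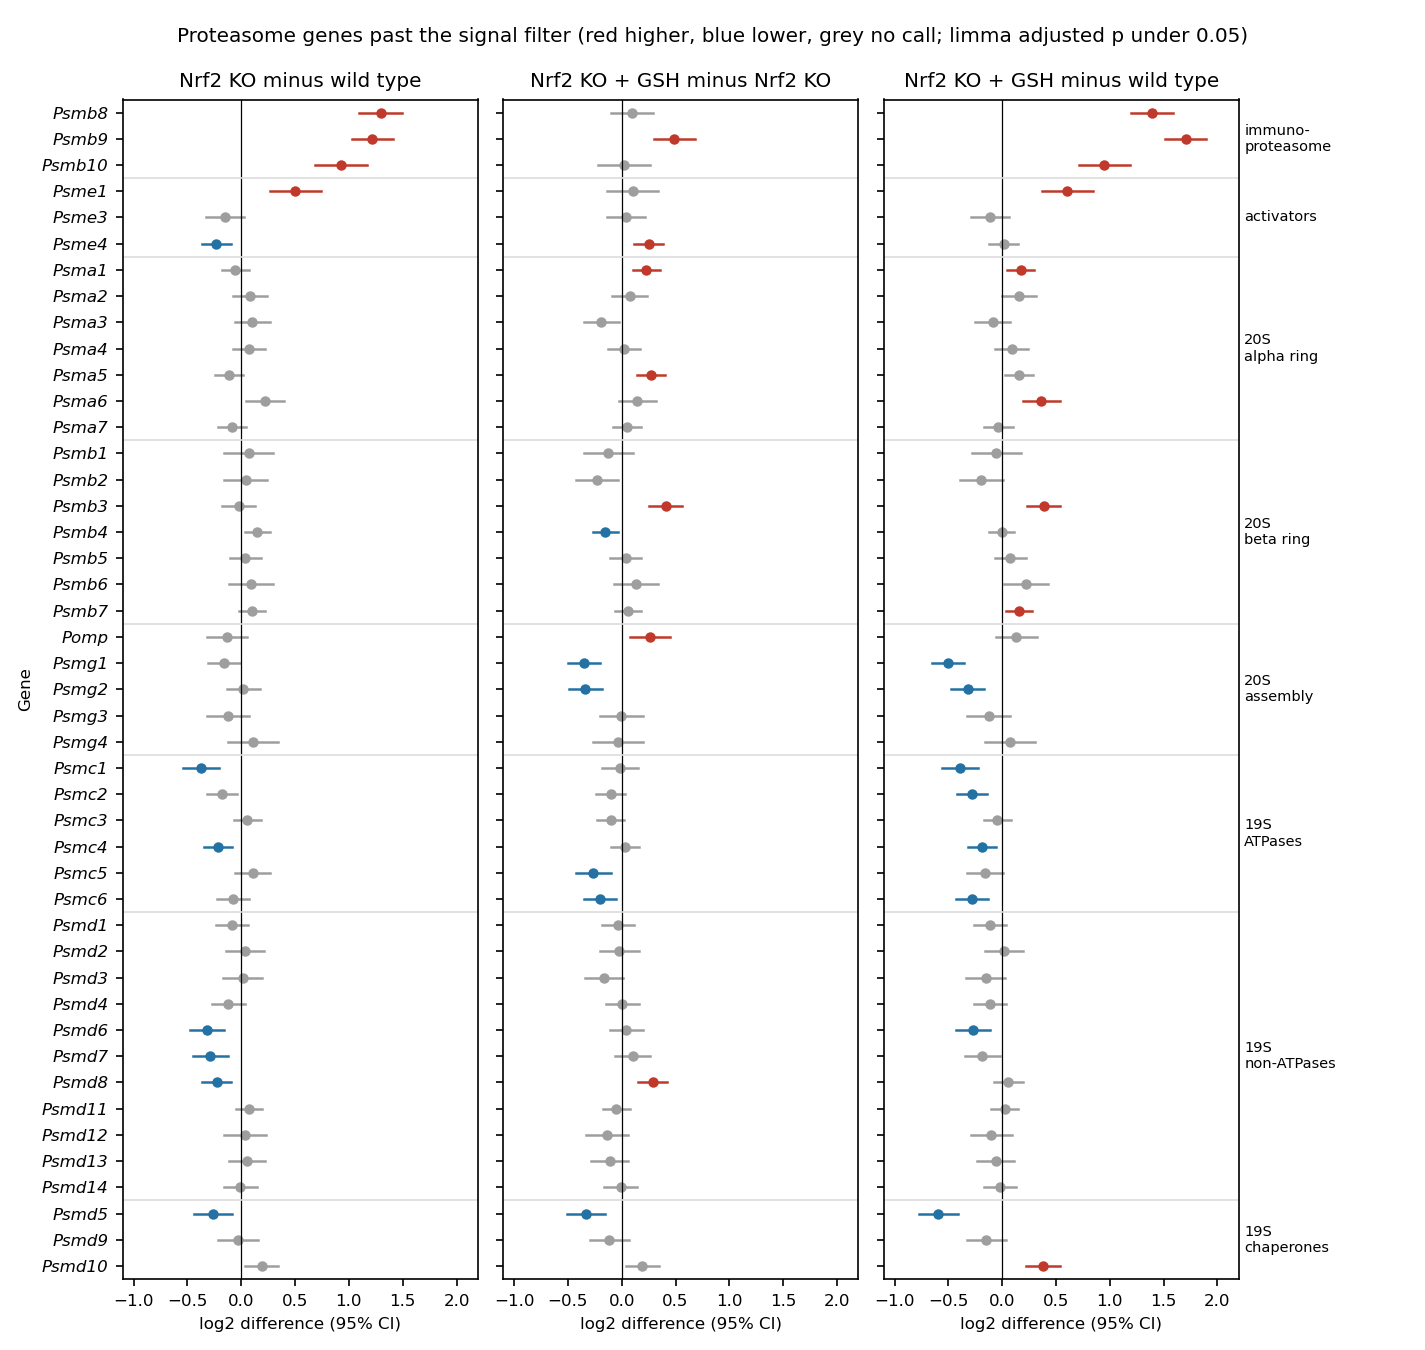
log2 difference (x axis, with its 95% interval) of each proteasome gene past the filter, in rows ordered by role, for the 3 comparisons. Red points were called higher, blue points lower and grey points not called; the 4 interferon-induced genes at the top stand at 0.50 to 1.30 in the left panel, and the 41 constitutive genes lie between -0.38 and 0.22.

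On every GSH array the interferon-induced members lay above all wild-type arrays, and Psmb9 rose beyond its level in knockout cells. Psmb9 was the one interferon-induced member that differed between the knockout groups, at 1.40-fold. Psmb8, Psmb10 and Psme1 gave log2 differences of 0.10, 0.02 and 0.10 with no call, and the median of the 4 was 0.10. Of the 41 constitutive members, 6 were called higher and 6 lower, with a median of -0.01. Over all probe sets 35.4% were called (18.4% higher and 17.0% lower), against 29.3% of the constitutive members. With the replicate number taken as a block in the 6 knockout arrays, the calls were 5 higher and 4 lower. In the fit of all 9 arrays with the number in place of the set they were 2 and 3.

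Psmb9 signals with GSH were 1107.3, 1193.8 and 997.2, all above the highest knockout array without it. The mean rose from 781 ± 20.1 to 1099 ± 98.5, a log2 difference of 0.49 ± 0.09 (limma adjusted p = 0.00095). The difference was 0.55 in set 2 and 0.38 in set 3, and the call was kept with the replicate block.

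Psmb8 read 2708.1, 3016.5 and 2754.4 with GSH, within or just above the knockout range, and its difference had an interval of -0.10 to 0.29. Psmb10 read 1707.2, 2222.7 and 2401.8, spanning the knockout values on both sides, with an interval of -0.22 to 0.26. Psme1 read 6165.4, 4874.7 and 3878.0, and its difference was 0.24 in set 2 and -0.18 in set 3. The direction of Psme1 between the knockout groups therefore differed between the sets.

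Psmb3, a structural subunit of the beta ring, had the largest rise with GSH among the constitutive members. It read 3890.1, 3910.1 and 3742.3 in wild type, 3702.9, 4261.3 and 3429.8 in knockout and 5407.1, 4938.4 and 4742.6 with GSH. The GSH arrays stood above both other groups, which overlapped, and the rise over knockout was 0.41 ± 0.07 (limma adjusted p = 0.00082). Its second probe set gave 0.19 with no call. The other called rises were those of the cap subunit Psmd8 (0.29), the alpha subunits Psma5 (0.27) and Psma1 (0.23), the maturation factor Pomp (0.27) and the activator Psme4 (0.25). The groups overlapped for Psmd8, Pomp and Psme4, and Pomp gave 0.42 in set 2 and -0.03 in set 3. With the arrays centred on their medians, 1 rise and 4 falls were called.

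Psmg1 and Psmg2 form the chaperone pair that starts assembly of the alpha ring, and both fell with GSH. Psmg1 read 1630.5, 1802.3 and 1723.2 in wild type, 1559.6, 1526.5 and 1529.5 in knockout and 1165.4, 1223.9 and 1238.7 with GSH. The 3 groups descended without overlap, and the fall between the knockout groups was 0.35 ± 0.07 (limma adjusted p = 0.0019). Psmg2 read 1974.3, 2043.9 and 2201.2 in wild type, 1943.2, 2002.9 and 2369.3 in knockout and 1469.4, 1639.6 and 1897.6 with GSH. It fell by 0.34 ± 0.07 (limma adjusted p = 0.0026), with an adjusted p of 0.079 without the set in the model.

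Psmd5 fell again with GSH, to 1475.2, 1240.6 and 1441.3, below all knockout arrays (-0.33 ± 0.08, limma adjusted p = 0.0078). Smaller falls were called for the ATPases Psmc5 (-0.27) and Psmc6 (-0.20) and the beta subunit Psmb4 (-0.15). The second Psmb4 probe set gave 0.09 with no call. Groups did not overlap in 8 of 41 constitutive members, against 33.6% of all probe sets. The count of falls was 3 in set 2 alone, without knockout replicate 3 and without the GSH replicate 4.

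Against wild type, GSH-supplemented knockout cells had higher signals of all 4 interferon-induced members. This comparison shares its arrays with the other comparisons and is not independent of them. The log2 differences were 1.39 ± 0.09 for Psmb8 (limma adjusted p = 2.3e-07), 1.71 ± 0.09 for Psmb9 (3.5e-08), 0.95 ± 0.11 for Psmb10 (2.7e-05) and 0.61 ± 0.11 for Psme1 (7.8e-04). No group overlapped with wild type in these 4 genes, as in 43.4% of all probe sets. Of the constitutive members, 5 were called higher and 8 lower, with a median of -0.05, and 31.7% of them were called against 44.7% of all probe sets (22.5% higher and 22.3% lower).

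The largest constitutive difference from wild type was the fall of Psmd5, by 0.59 ± 0.08 (limma adjusted p = 1.1e-04). Psmg1 fell by 0.51 ± 0.07 (limma adjusted p = 9.7e-05), and Psmc1, which read 1790.0, 2064.0 and 2156.9 with GSH, by 0.39 ± 0.08 (0.0014). Psmg2 fell by 0.32 ± 0.07 (0.0029) and Psmd6, at 3665.6, 4101.3 and 4640.6 with GSH, by 0.27 ± 0.07 (0.0087). Of the 6 ATPases 4 were called lower, Psmc1, Psmc2, Psmc4 and Psmc6, with a median of -0.23 over the 6, beside 24.5% of all genes called lower. Second probe sets of Psmc2, Psmc4 and Psmd6 gave 0.015, -0.38 and -0.03 without a call. The calls of Psmg2 and Psmd6 needed the set in the model (adjusted p of 0.077 and 0.10 without it).

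Psmd10, the oncoprotein gankyrin, which chaperones cap assembly, read 1175.9, 1212.9 and 1281.2 in wild type, 1330.6, 1286.6 and 1579.2 in knockout and 1446.5, 1553.5 and 1794.9 with GSH. The rise over wild type was 0.38 ± 0.07 (limma adjusted p = 0.0011), and the array of set 3 was the highest in each group. With each array centred on its median it was 0.23 and not called (adjusted p = 0.11).

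Psma6, an alpha ring subunit, read 6974.4, 8740.2 and 9035.4 in wild type, 8658.7, 9149.2 and 10956.0 in knockout and 9945.7, 9730.4 and 12137.7 with GSH. It rose over wild type by 0.36 ± 0.08 (limma adjusted p = 0.0030), a call lost after centring (0.22, adjusted p = 0.11) and without the set (adjusted p = 0.073). Other Psma6 probe sets were called higher already in knockout, by 0.39 and 1.11. Psmb3 rose by 0.38 ± 0.07 (limma adjusted p = 9.7e-04), and its second probe set gave 0.04 with no call.

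Psmb5 read 7226.9, 7139.3 and 5650.6 with GSH, overlapping wild type, with a difference of 0.08 ± 0.07 (limma adjusted p = 0.37). Psmb6 read 4633.7, 4908.7 and 4842.8, above all wild-type arrays, with a difference of 0.22 ± 0.09 that was not called (limma adjusted p = 0.075). Psmb7 read 11199.4, 10619.9 and 11445.5 and was called higher by 0.16 ± 0.06 (limma adjusted p = 0.042), but quantile normalisation turned its sign (-0.03) and 3 of 16 alternatives kept the call. Each ordinary catalytic subunit differed less from wild type than the subunit that replaces it.

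Array scaling moved the constitutive split against wild type. The median difference of all probe sets was 0.02 as deposited and -0.13 with each array centred on its median. After centring, 1 constitutive member was called higher and 13 lower, with a median of -0.20, and all 4 interferon-induced members were still called higher. Between knockout and wild type the centred split was 0 higher and 8 lower by limma. Leaving out wild type replicate 3, 4 or 5 or the GSH replicate 3 gave 3 rises over wild type each.

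Ratios within an array cancel its scaling and show how unequally 2 genes changed. The log2 ratio of Psmb8 to Psmb5 was -2.61, -2.66 and -2.38 in wild type, -1.49, -1.33 and -1.05 in knockout and -1.42, -1.24 and -1.04 with GSH. It rose by 1.26 from wild type to knockout and differed by 0.06 between the knockout groups. For Psmb9 over Psmb6 the values were -3.47, -3.59 and -3.78, then -2.25, -2.35 and -2.86, then -2.07, -2.04 and -2.28, with differences of 1.12 and 0.36. For Psmb10 over Psmb7 the differences were 0.83 and -0.04. Every array of either knockout group lay above every wild-type array in all 3 ratios. Exact two-sided permutation tests gave p = 0.10 in each of these 6 comparisons with wild type, the smallest that 3 against 3 arrays allow, and 0.15 after adjustment over 9 tests. Between the knockout groups the exact permutation p was 0.70, 0.20 and 1.0.

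**Figure D3:**
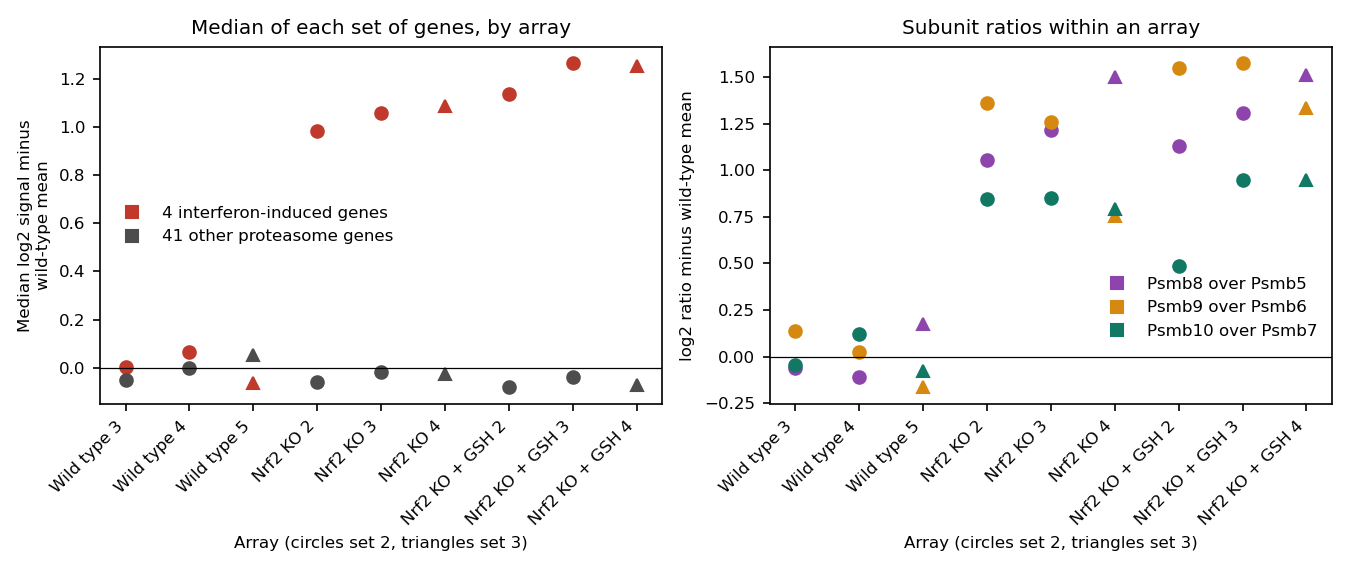
Left, the median log2 signal of the 4 interferon-induced and 41 constitutive members on each array, as a difference from the wild-type mean of each gene; right, the log2 ratio of each immunoproteasome subunit to the subunit it replaces, as a difference from the wild-type mean. Circles are arrays of set 2 and triangles of set 3; the interferon-induced median is 0.98 to 1.09 in knockout and 1.14 to 1.26 with GSH, and the constitutive median stays between -0.08 and 0.06 on all 9 arrays.

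Most genes of MHC class I presentation and of interferon signalling were also higher in knockout. Of 12 genes of MHC class I presentation, limma called 10 higher in knockout, with a median log2 difference of 0.47. Tap1 and Tap2, which form the peptide transporter, rose by 1.15 and 0.55, and B2m, the light chain of class I, by 0.49. Nlrc5, the transactivator of class I genes, rose by 1.53, but it was dim in wild type, at 107.8, 130.2 and 72.8. Its wild-type mean of 103.6 lay under the filter's 116, and it passed the filter through the knockout groups. Of 13 interferon signalling factors 10 were called higher (median 0.67), among them Irf7 (1.19) and Stat2 (0.97). In the same 2 lists limma called 0 lower, also at an unadjusted p under 0.05, and 5 of the 25 genes were not called, with Tapbpl at -0.31, Ifngr1 at -0.13 and Canx at -0.05. Over all genes 16.7% were called higher and 15.7% lower.

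GSH-supplemented cells differed from knockout cells in part of both lists. Of the 12 presentation genes 4 were called higher than in knockout without GSH, Tapbp by 0.65, Tapbpl by 0.70, Nlrc5 by 0.61 and Erap1 by 0.38, while Tap1 gave -0.34 without a call. Of the 13 signalling factors 3 rose and 3 fell, with Irf8 up by 0.63 and Ifnar2 down by 0.52. Over all genes 19.7% were called higher and 19.8% lower in this comparison, near the shares of the signalling factors. Against wild type 9 presentation genes (median 0.63) and 12 signalling factors (median 0.56) were called higher, beside 23.5% of all genes.

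Among regulators and shuttle factors of the proteasome, 1 of 16 was called higher and 4 lower in knockout, with a median of -0.09, beside 16.7% and 15.7% of all genes. The ubiquitin receptor Rad23b fell by 0.28, the shuttle factors Ubqln1 and Ubqln2 by 0.23 and 0.22, and Txnl1, a thioredoxin-like protein of the cap, by 0.25. Sem1, a small cap subunit outside the naming rule, rose by 0.20. Nfe2l1, the gene of Nrf1, gave 0.08 ± 0.06 in knockout and -0.04 ± 0.06 with GSH, neither of them called (limma adjusted p = 0.36 and 0.66).

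Markers of macrophages, cells that carry immunoproteasomes, rose beside the interferon-induced members although the protocol removed macrophages on IgG plates. Of 19 markers 18 were called higher in knockout (median 0.95) and all 19 with GSH against wild type (median 1.37), beside 16.7% and 23.5% of all genes. Their summed signal was 76809 to 80055 in wild type, 128267 to 151725 in knockout and 170246 to 199752 with GSH. No marker was near 0, and the markers Ptprc, Adgre1 and Csf1r stood at means of 2230, 4276 and 5818 already in wild type. Between the knockout groups 11 markers rose and 2 fell, beside 19.7% and 19.8% of all genes. Psmb9 rose there while Psmb8, Psmb10 and Psme1 were not called. The part of macrophage RNA in the interferon-induced signals was not tested, and in bulk RNA a larger share of such cells cannot be told apart from more transcript per cell.

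Markers of other cells moved in other orders. Of all genes, 16.7% were called higher and 15.7% lower in knockout against wild type. With GSH the shares were 19.7% and 19.8% against knockout, and 23.5% and 24.5% against wild type. The 6 epithelial markers were all called lower in knockout (median -1.78) and all higher with GSH than in either other group. Of 9 fibroblast markers, 7 were called higher in knockout and 1 lower, Thy1 by 0.60. Their summed signal was 71670 to 96709 in knockout, against 55809 to 58442 in wild type. All 9 were called lower with GSH than in either other group (15962 to 19385). Of 5 endothelial markers 2 were called lower in knockout, Emcn by 1.66 and Kdr by 0.52, and all 5 with GSH against wild type. Between the knockout groups Emcn was called higher with GSH, by 1.01, and 0 were called lower, with a median of -0.19 over the 5. Of the 7 type II markers past the filter, 2 were called higher in knockout, Napsa by 1.13 and Lyz1 by 0.46, and 1 lower, Sftpd by 1.06. Lyz1 signals ran close to those of the macrophage marker Lyz2 (0.44) on every array, and whether the probe sets read separate transcripts was not tested. With GSH 3 type II markers were called higher than in knockout, Napsa by 1.31, Sftpd by 0.70 and Abca3 by 0.67. The interferon-induced members stayed above wild type with GSH, where the fibroblast markers were at their lowest and the epithelial markers at their highest. Of 9 lymphocyte markers measured 2 passed the filter, and of these limma called 0, at an unadjusted p under 0.05 as well. Cd3d, which defines T cells, had means of 8.2 to 10.2. The others below the filter were not tested. Among them Cd79b read 42.1, 56.5 and 64.5 in wild type and 91.6, 104.4 and 120.2 in knockout, while Cd79a had means of 83.4 and 38.7.

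**Figure D4:**
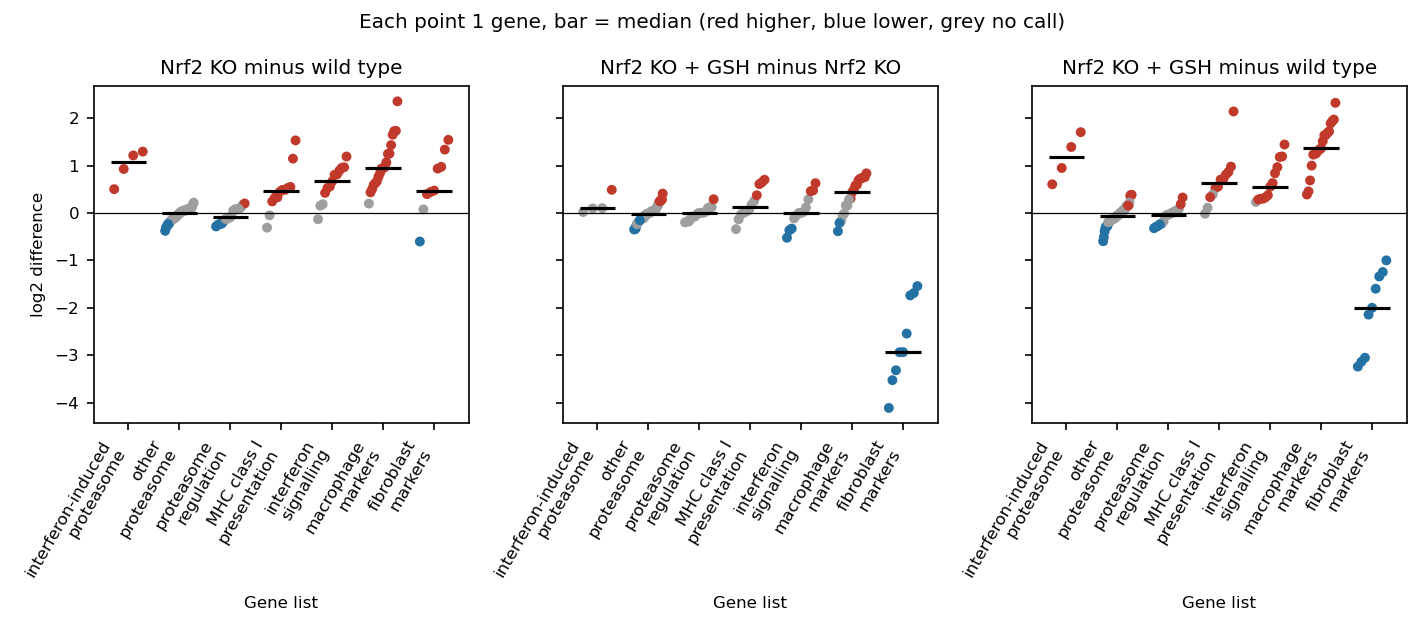
log2 difference of each gene (points) and the median (bars) for the proteasome members and 5 further gene lists, in the 3 comparisons. Red was called higher, blue lower and grey not called; the presentation, interferon and macrophage medians are 0.47, 0.67 and 0.95 in the left panel, and the constitutive proteasome and its regulators lie at -0.01 and -0.09.

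Further probe sets of a gene did not always share the call of the one used. Of 28 further probe sets in 19 genes, 18 shared the call between knockout and wild type and 10 did not, and none was called in the opposite direction. Psmb4 was not called in knockout, but its second probe set, at a geometric mean signal of 6547, fell by 0.28, and Psmd11 was not called while its further probe sets fell by 0.34 and 0.28. Further probe sets of Psme3 and Psma6 were called too, Psme3 lower by 0.38 and Psma6 higher by 0.39 and 1.11. Psmc4 fell by both its probe sets, by 0.21 and 0.83. In the comparisons of GSH with knockout and with wild type, 9 and 10 of the 28 did not share the call. Between the knockout groups the second probe sets of Psma5 and Psma1 gave -0.13 and 0.04 without a call. Further probe sets of Psme4 gave 0.01 without a call and a called rise of 0.22 there. Averaging the probe sets of a gene gave 2 rises and 9 falls in knockout.

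The genes Psma8, the testis form of Psma7, and Psmb11, the thymus form of the Psmb5 site, were too dim for the test. Psma8 had means of 56.4, 85.7 and 91.1 in wild type, knockout and knockout with GSH, and Psmb11 of 47.8, 44.8 and 54.5. The control level of the arrays was 43.4 to 82.9. Psmc3ip, a recombination factor named for binding Psmc3, fell by 0.40 ± 0.15 with GSH against wild type (limma adjusted p = 0.047). It read 332.3, 314.5 and 409.5 in wild type and 284.9, 211.8 and 308.8 with GSH, 5 of 15 alternatives kept the call, and its second probe set gave -0.10. Psme3ip1 was not called in any comparison.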

How the data were processed

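Affymetrix Mouse 430 2.0 arrays of cultured lung cells, 9 in all, were compared. The authors deposited 1 intensity per probe set and array on a linear scale; no source used here names the summarising software. The 2% trimmed mean of 500 on each array shows a common scaling. Controls (64) were left out, leaving 45037 of 45101 probe sets; 2 zeros were set to 0.1, and log2 intensities were used with no further normalisation. Probe sets below the median mean log2 intensity (geometric mean of 116) were left out, which kept 22519. GEO's platform annotation gave the symbols: 1 for 34945 probe sets, several for 932 and none for 9160. The control level is the 95th percentile of 27 unspiked control probe sets. Promoters came from RefSeq's table for GRCm38.p6, which held windows for 39 of the 47 proteasome genes, matched by symbol.

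One limma model (version 3.58.1, R 4.3.3) over the 9 arrays had terms for group and set, with eBayes following the intensity trend (6.08 prior degrees of freedom beside 5 residual ones); the code was tested on simulated data. Per-array values were given for the interferon-induced members, the 3 subunits they replace, and other members called with an absolute log2 difference of at least 0.3. The members, roles and gene lists were chosen with earlier results of these data known, and no list was tested as a set. The titles give both knockout groups the replicate numbers 2, 3 and 4. Same-numbered arrays deviated together from their group means (r = 0.32, 0.29 and 0.67), each over 0.1, and the numbers were taken as pairs. Crossed pairs in set 2 gave 0.24 and 0.39. In set 3, wild type replicate 5 gave 0.696 with knockout replicate 4 and 0.635 with GSH replicate 4. Arrays of the same set thus passed 0.1 whatever their number, so these correlations cannot show pairing. Wild type and knockout share numbers 3 and 4 (r = 0.42 and -0.48) and were not taken as pairs. The replicate block over all 9 arrays still grouped arrays by number alone. It thus joined wild type replicate 4 of set 2 with knockout and GSH replicates 4 of set 3, across the sets. Wild type replicate 5 was the only array with its number. Alternatives were no set term, the replicate block, set 2 alone, quantile normalisation, median centring, other filters, a pseudocount of 16, averaged probe sets, each array left out, and the fold rule of the design text. The paired fit of the 6 knockout arrays and the fit without the intensity trend were added after seeing the data. The number of arrays limits the precision.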

Additional observations from a re-analysis of the deposited data

How the results depend on the processing

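The direction of Psmb8, Psmb9, Psmb10 and Psme1 against wild type was the same under each alternative run, and Psmb8, Psmb9 and Psmb10 kept their limma call in all 16 alternatives of both comparisons with wild type. Psme1 in knockout lost its call without the set term (adjusted p = 0.077), with the replicate block (0.17) and under the fold rule. The count of constitutive members called higher in knockout, 0, became 1 with the replicate block and with quantile normalisation, 2 with the 70th percentile filter and 2 with averaged probe sets (0 to 1 with an array left out). The 7 called lower became 1 without the set term, 0 with the replicate block, 3 in set 2 alone, 3 without the intensity trend and 0 under the fold rule (2 to 7 with an array of either group left out, 8 without GSH replicate 2). Between the knockout groups the 6 higher became 1 without the set term, 2 with the replicate block, 1 after median centring and 0 under the fold rule. The 6 lower became 2, 3 with the block, 3 in set 2 alone, 3 without the trend and 0 under the fold rule (3 to 6 with an array left out), and the fold rule also left 0 interferon-induced members. Against wild type the 5 higher with GSH became 2 without the set term, 1 after centring, 3 with no filter, 3 without the trend and 0 under the fold rule (3 to 5 with an array of either group left out, 6 and 7 without knockout replicates 2 and 3); the 8 lower became 3 without the set term, 3 with the replicate block, 13 after centring and 0 under the fold rule. The sign turned for Psmb10 over Psmb7 between the knockout groups with quantile normalisation (0.05) and without GSH replicate 2 (-0.11 to 0.12 over the arrays left out), for Psmb8 over Psmb5 there with averaged probe sets (-0.15) and without knockout replicate 2 (-0.041) or GSH replicate 4 (-0.038), in a range up to 0.181 over the arrays left out, and for Psmb7 with GSH against wild type with quantile normalisation (-0.026). For the single genes 746 alternative values kept their side of the threshold, among them uncalled values that changed sign, 66 lost the call, 16 gained it and 1 called value turned; the causes were not tested.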
